A study of Sus scrofa with 15 samples.

Results

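The genes described here are markers of T cells and natural killer (NK) cells, measured in pig liver as part of the RNA-seq that accompanied an m6A study of LPS-induced inflammation. The set was named by symbol and holds CD3D, CD3E, CD3G, CD2, CD8A, CD48, GZMA, NKG7, KLRK1 and PRF1. Of these 10 symbols, 9 are paired with at least 1 identifier in the count table and CD3G with none, and GZMA is paired with 2, so the markers take up 10 of the table's 31908 genes. Of the 10 rows, 9 had enough reads to be tested, among 12774 tested genes, and 1 of the GZMA rows did not.

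Total liver mRNA was compared between a CON group, injected with sterile saline, and an LPS group, injected with 80 μg/kg of lipopolysaccharide into the peritoneal cavity, in each case 4 h before the liver was taken. All animals were male growing-stage piglets of the cross Duroc x Large White x Landrace. Each group had 3 input libraries, made from polyadenylated and sonicated liver RNA that was not exposed to the m6A antibody. The labels do not say that the libraries of a group came from different piglets, so p-values measure the spread between these libraries.

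Lipopolysaccharide is an outer-membrane component of Gram-negative bacteria that is sensed first by innate immune cells. The liver also holds a resident population of lymphocytes, in which T cells and NK cells are abundant and lie mostly in the sinusoids. T cells recognise antigen through a receptor whose signal is passed on by the CD3 chains, and both T cells and NK cells kill target cells by releasing granules that hold perforin and granzymes. The whole tissue was sequenced, so fewer cells of a type and less RNA per cell cannot be told apart in any value given here.

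Reads on these markers made up a small share of each library, between 0.00971% and 0.0176% of all counts. That was 422 reads in LPS replicate 1, the shallowest library with 4348478 counts in total, and 3523 reads in LPS replicate 3, the deepest with 19967417. The other libraries had 5502438 to 10351491 counts in total and 805 to 1695 on the markers. Levels are in CPM, counts scaled to the size of the library by TMM, with a factor of 0.735 for LPS replicate 3 and of 0.979 to 1.11 for the rest. Mitochondrial genes held 1.17% to 3.22% of counts. One read was worth between 0.0683 and 0.218 CPM. All 12 hepatocyte markers looked up had reads in every library, and albumin (ALB) was at 12381 CPM or more.

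No T or NK cell marker passed the test between the groups with all 6 libraries. A gene was called where edgeR's quasi-likelihood test gave an adjusted p below 0.05 and the fold change exceeded 1.5, and 0 of the 9 tested markers were called in either direction. By the same rule 0.0548% of all tested genes were called higher and 0% lower, so that a count of 0 among 9 markers does not set them apart from other genes. At an unadjusted p below 0.05, 1 marker was higher, which was CD48, and 0 were lower, against 6.18% and 6.33% of all tested genes. DESeq2 called 1 marker higher, CD48 again, and 0 lower, where its background was 2.02% and 1.15%. Without the filter on low counts edgeR also called CD48 alone, against a background of 2.28% higher and 1.48% lower. With LPS replicate 1 left out 0 markers were called (background 0.00733% higher and 0% lower), and with LPS replicate 3 left out 0 were called as well (background 0.31% and 0.151%). The median log2 fold change of the 9 markers was -0.18, beside 0.01 over all tested genes. Without CD48 it was -0.19, and it was above 0 when CON replicate 3 (0.06) or LPS replicate 1 (0.14) was left out.

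**Figure D1:**
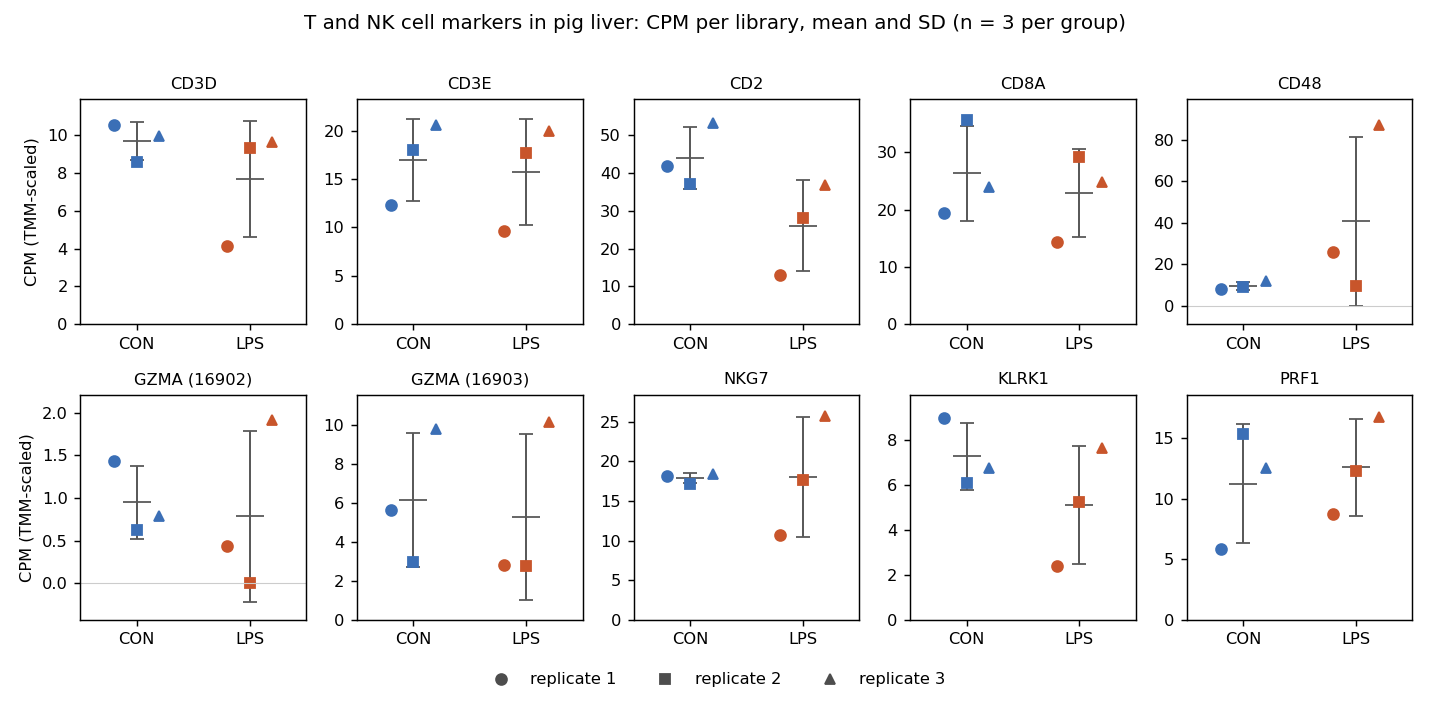
CPM (y axis, linear, TMM-scaled) of each marker row in the 3 CON libraries (blue) and 3 LPS libraries (orange), with the group mean and SD as grey lines. The groups overlap in every panel but that of CD2, where the 3 LPS libraries lie at 13.1 to 36.9 CPM and the 3 CON libraries at 37.0 to 53.1, and CD48 reaches 25.7 and 87.0 in LPS replicates 1 and 3.

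The CD3 chains, which carry the signal of the T cell receptor into the cell and define the T cell, lay in overlapping ranges in both groups. CD3D (ENSSSCG00000015093, chromosome 9, 45637129 to 45644221, minus strand) was at 10.5, 8.59 and 9.99 CPM in CON replicates 1 to 3 and at 4.14, 9.33 and 9.63 CPM in LPS replicates 1 to 3. LPS replicate 1 was low, and the other LPS libraries lay within the range of the CON libraries. CD3D had a log2 fold change of -0.32 ± 0.39 (SE; edgeR adjusted p = 0.776), with a 95% interval from -1.20 to 0.56. CD3E (ENSSSCG00000040140, chromosome 9, 45619481 to 45635379, plus strand), its neighbour on the chromosome, was at 12.3, 18.0 and 20.6 CPM in the CON group and at 9.59, 17.7 and 19.9 CPM in the LPS group. Replicates 2 and 3 of the LPS group again fell inside the CON range and LPS replicate 1 fell below it. CD3E had a log2 fold change of -0.10 ± 0.38 (edgeR adjusted p = 0.941), with a 95% interval from -0.94 to 0.74.

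CD2, an adhesion and co-stimulatory receptor of T cells and NK cells, was the only tested marker whose groups did not overlap. CD2 (ENSSSCG00000006736, chromosome 4, 103962319 to 103977292, minus strand) was at 41.8, 37.0 and 53.1 CPM in the CON group and at 13.1, 28.1 and 36.9 CPM in the LPS group. The highest LPS library came close to the lowest CON library. The log2 fold change of CD2 was -0.75 ± 0.39 (edgeR adjusted p = 0.474), so the difference did not pass the test, and its 95% interval ran from -1.63 to 0.13. Groups that do not overlap occurred in 16.3% of all tested genes, with the LPS group below in 9.8% and above in 6.52%. Within a library, the ratio of CD2 to PTPRC counts was 0.322, 0.390 and 0.530 in the CON group and 0.274, 0.268 and 0.381 in the LPS group, and on that scale the groups overlapped. PTPRC encodes CD45, the surface phosphatase that all nucleated blood cells carry.

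CD8A, the chain of the co-receptor CD8 that cytotoxic T cells and, in pigs, NK cells carry, had overlapping groups. CD8A (ENSSSCG00000008217, chromosome 3, 57998891 to 58037130, plus strand) was at 19.5, 35.6 and 23.9 CPM in the CON group and at 14.4, 29.3 and 24.9 CPM in the LPS group. Its log2 fold change was -0.20 ± 0.37 (edgeR adjusted p = 0.862), with a 95% interval from -1.03 to 0.64.

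Each of the cytotoxic markers had overlapping groups too. NKG7 (ENSSSCG00000003231, chromosome 6, 58496089 to 58497827, plus strand), a granule membrane protein of NK cells and cytotoxic T cells, was at 18.1, 17.2 and 18.4 CPM in the CON group and at 10.7, 17.7 and 25.7 CPM in the LPS group. The CON libraries were close to each other and the LPS libraries fell on both sides of them. NKG7 had a log2 fold change of 0.02 ± 0.36 (edgeR adjusted p = 0.991), and a value of -0.17 when libraries were scaled to total counts alone. PRF1 (ENSSSCG00000010271, chromosome 14, 73512769 to 73520202, minus strand), which encodes the pore-forming protein perforin, was at 5.81, 15.3 and 12.6 CPM in the CON group and at 8.72, 12.3 and 16.7 CPM in the LPS group. Its lowest library was CON replicate 1, unlike most of the markers. The log2 fold change of PRF1 was 0.18 ± 0.43 (edgeR adjusted p = 0.896).

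KLRK1 (ENSSSCG00000040465, chromosome 5, 61623200 to 61656195, plus strand), which encodes the activating receptor NKG2D, was at 8.94, 6.09 and 6.72 CPM in the CON group and at 2.40, 5.24 and 7.65 CPM in the LPS group. LPS replicate 1 was again the lowest library, and LPS replicate 3 lay within the CON range. KLRK1 had a log2 fold change of -0.48 ± 0.45 (edgeR adjusted p = 0.703), with a 95% interval from -1.49 to 0.53.

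GZMA encodes granzyme A, a serine protease of cytotoxic granules, and its 2 identifiers lie close to each other on the plus strand of chromosome 16. None of the sources used here states how reads that match both were counted, so neither level is certain. The row tested (ENSSSCG00000016903, 34282120 to 34290477) was at 5.63, 2.97 and 9.79 CPM in the CON group and at 2.83, 2.78 and 10.2 CPM in the LPS group. Both groups spanned about the same range, and the log2 fold change was -0.18 ± 0.61 (edgeR adjusted p = 0.931). The other row (ENSSSCG00000016902, 34262484 to 34272615) held 16, 4 and 8 reads in the CON group and 2, 0 and 28 reads in the LPS group. It was below the filter, and its 0 reads in LPS replicate 2 allow a level of up to 0.491 CPM, the value of 3 reads, which covers counting error only.

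CD48 stood apart from the other markers. It encodes a lipid-anchored surface protein that most leukocytes carry and that binds CD2 and the NK cell receptor CD244, so it is the least particular to T cells and NK cells of the set. CD48 (ENSSSCG00000006379, chromosome 4, 89828923 to 89844484, plus strand) was at 8.22, 8.75 and 11.8 CPM in the CON group, that is 92, 56 and 119 reads. In the LPS group it was at 25.7, 9.33 and 87.0 CPM, that is 118, 57 and 1274 reads. LPS replicates 1 and 3 were above every CON library and LPS replicate 2 was inside the CON range.

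CD48 had a log2 fold change of 2.09 ± 0.68 (4.27-fold; edgeR adjusted p = 0.268), with a 95% interval from 0.56 to 3.63, and was not called with all 6 libraries. It was called by DESeq2 (log2 fold change 2.13, adjusted p = 0.0319) and by edgeR without LPS replicate 2 (2.57, adjusted p = 0.0116), where 3.76% of all tested genes were called higher. With LPS replicate 3 left out the value fell to 0.88 (edgeR adjusted p = 0.454). A ratio within a library does not depend on library scaling. The ratio of CD48 to CD2 counts was 0.197, 0.236 and 0.222 in the CON group and 1.97, 0.331 and 2.36 in the LPS group. Every LPS library had a higher ratio than every CON library, LPS replicate 2 by the least. CD2 itself was below the CON group in every LPS library. The ratio of CD48 to PTPRC counts was 0.0632, 0.0923 and 0.117 in the CON group and 0.539, 0.0889 and 0.899 in the LPS group. On that scale the groups overlapped, with LPS replicate 2 inside the CON range. Both ratios were chosen after the values were seen and were not tested.

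**Figure D2:**
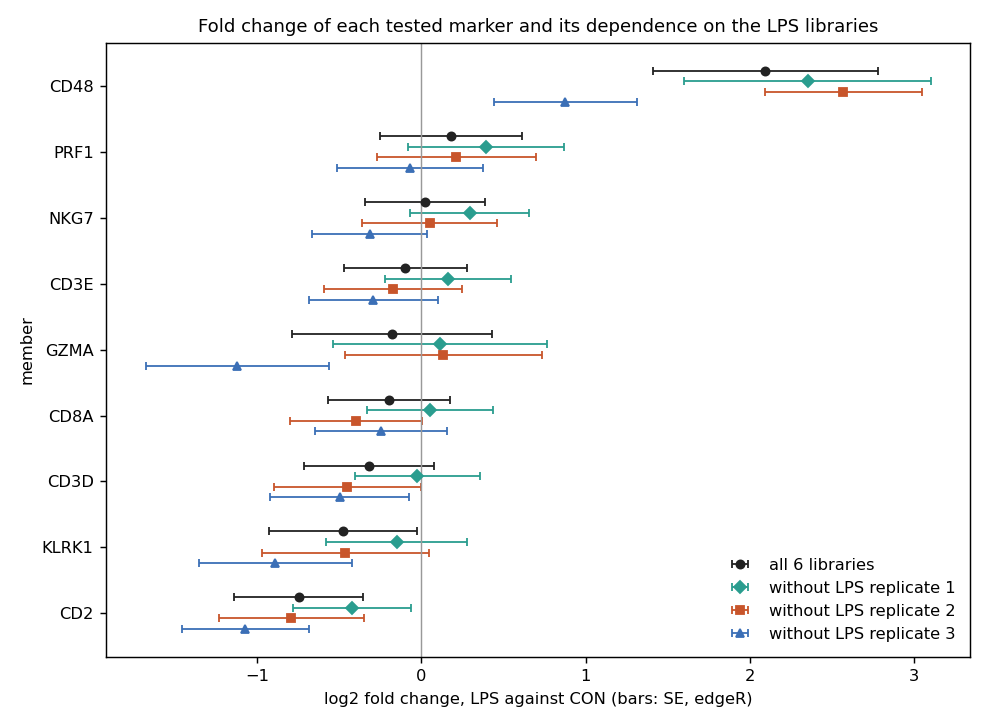
Log2 fold change of LPS against CON (x axis, with SE bars from edgeR) for the 9 tested marker rows (y axis), with all 6 libraries and with LPS replicate 1, 2 or 3 left out. CD48 is at 2.09 with all libraries and at 0.88 without LPS replicate 3, and CD2 is below 0 in each of the 4 fits shown.

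LPS replicate 1 held the lowest value of most markers. It was the lowest of the 6 libraries for 6 of the 9 tested markers, where it was the lowest for 23.2% of all tested genes. Among the LPS libraries alone it was the lowest for 7 of 9 markers, against 32% of all tested genes. The median log2 CPM of the markers, set against their CON mean, reached -0.82 in LPS replicate 1, then -0.02 and 0.26 in LPS replicates 2 and 3, and lay between -0.11 and 0.27 in the CON libraries. By this median LPS replicate 1 was below the CON libraries, and LPS replicates 2 and 3 were within their range.

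Genes of some other cell types were low in LPS replicate 1 as well, among them those of all leukocytes and of hepatocytes. The 9 tested genes of the all-leukocyte list, which include PTPRC, LCP1 and LSP1, had medians of -0.90, -0.09 and -0.21 relative to the CON mean in LPS replicates 1, 2 and 3. Their summed level was 530 to 749 CPM in the CON group and 350 to 757 CPM in the LPS group, and none of the 9 was at 0 reads in any library. PTPRC was at 130, 94.8 and 100.2 CPM in the CON group and at 47.8, 105 and 96.7 CPM in the LPS group. The median of the 12 hepatocyte genes was -0.81, -0.49 and -0.03 in LPS replicates 1, 2 and 3. In LPS replicate 1 medians were also low for B or plasma cell (-0.96), Kupffer cell or macrophage (-1.12) and cholangiocyte or stellate cell genes (-0.49). Those of endothelial (-0.11) and dendritic cell genes (-0.09) were near that of all tested genes (-0.055). Neutrophil (1.88) and red blood cell or platelet genes (1.15) were high in that library. The ratio of CD3D to PTPRC counts had overlapping groups, at 0.0811, 0.0906 and 0.0997 in the CON group and at 0.0868, 0.0889 and 0.0995 in the LPS group. The ratio of CD3E to PTPRC counts overlapped too but varied more, at 0.0948, 0.189 and 0.205 in the CON group and at 0.201, 0.168 and 0.206 in the LPS group. The part of the tissue content of LPS replicate 1 in the marker levels was not tested.

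**Figure D3:**
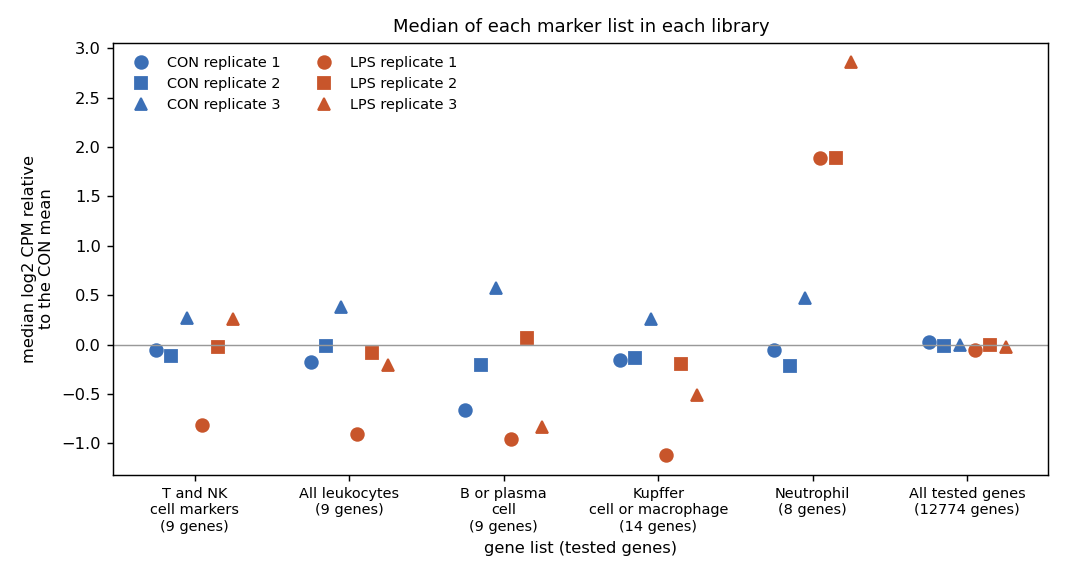
Median log2 CPM of the tested genes of 5 marker lists and of all tested genes (x axis) in each library, relative to the CON mean (y axis). T and NK cell markers and all-leukocyte genes are low in LPS replicate 1 (-0.82 and -0.90), whereas neutrophil genes are high in all 3 LPS libraries (1.88, 1.88 and 2.86).

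Per kilobase of the deposited gene length, NKG7 had the highest level of the markers. That length is the union of annotated exons and not that of a transcript, so the order depends on the annotation. It was 1186 bases for NKG7 and 6692 for CD2. By CPM, CD2 was above NKG7 in the CON group, with means of 44.0 and 17.9. In the CON group its level was 29.9 ± 6.09 (SD, n = 3) in units of counts per kilobase, scaled like TPM to the same sum in each library. CD2 at 12.7 ± 0.87, the tested GZMA row at 12.5 ± 4.28, CD8A at 8.52 ± 4.17 and CD48 at 8.25 ± 0.78 followed. CD3E at 7.25 ± 1.80, CD3D at 6.36 ± 1.33, PRF1 at 4.59 ± 2.51 and KLRK1 at 2.95 ± 0.94 came next, and the second GZMA row was last at 1.16 ± 0.62. Neighbours in this order overlapped between their CON libraries except NKG7 with CD2 and KLRK1 with the second GZMA row. In the LPS group the per-length level of CD48 was 27.6, 9.28 and 46.7, so in LPS replicates 1 and 3 it was above the level of NKG7, which was 21.6 and 26.1 in the same libraries.

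The ratio of cytotoxic to T cell markers had overlapping groups. The summed per-length level of GZMA, PRF1, NKG7 and KLRK1 was 4.10, 3.32 and 3.94 times that of CD3D and CD3E in the CON group and 4.23, 3.10 and 5.18 times in the LPS group. The mean difference was 0.11 on the log2 scale. From summed counts the ratio was 1.75, 1.59 and 1.58 in the CON group and 1.83, 1.41 and 2.10 in the LPS group. The size of the ratio thus depends on the lengths used. The summed markers relative to the summed all-leukocyte genes were higher by 0.41 on the log2 scale in the LPS group, with overlapping groups, and by 0.04 when CD48 was left out of the sum. From summed counts instead of per-length levels these differences were 0.23 and -0.09, so without CD48 the sign differed between the scales.

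The markers other than CD48 varied together across the 6 libraries. Of the 28 pairs that can be made of them, 27 had a positive Pearson correlation of log2 CPM, with a median of 0.64 and a range from -0.04 to 0.95. Of the 8 pairs with CD48, 4 were positive and the median was -0.02. These are descriptions over 6 libraries, which share the low LPS replicate 1 and the scaling factor of each library. NKG7 (0.96) and CD3E (0.92) followed the mean standardized log2 CPM of the tested markers most closely and CD48 least (0.21). Each marker is itself part of that mean, which raises its value. Among all other tested genes with a symbol, those whose pattern was most like that mean were STK39 (0.996), PTAFR (0.992), NIPAL1 (0.988), CCNE1 (0.986) and MTMR3 (0.985). STK39, a kinase of ion transport, was at 3.04, 3.28 and 4.05 CPM in the CON group and at 1.74, 3.11 and 4.57 CPM in the LPS group, and its lowest library was LPS replicate 1 as well.

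CD48 was set beside each cell type list over the same 6 libraries. Its log2 CPM had a correlation of 0.06 with the mean of the other 8 tested markers and of -0.07 with that of the all-leukocyte genes. The correlation was 0.84 with the mean of the neutrophil genes and 0.98 with that of 2 red blood cell genes. With the remaining cell type lists it was negative, from -0.93 for endothelial genes to -0.09 for hepatocyte genes. Large values of either sign thus occurred over these 6 libraries, and they are given as descriptions. Neutrophil genes were high in every LPS library: 7 of the 8 tested genes were higher and the summed level was 23.4 to 36.7 CPM in the CON group and 93.3 to 330 CPM in the LPS group. CSF3R, the receptor for the granulocyte growth factor, was at 5.90, 10.6 and 16.2 CPM in the CON group and at 99.0, 46.8 and 100.4 CPM in the LPS group. Of the 13 neutrophil rows, LYZ was at 0 reads in all libraries and 5 rows, LYZ included, were at 0 in at least 1. HBB, the beta chain of haemoglobin, was at 52.5, 57.3 and 60.0 CPM in the CON group and at 192, 72.6 and 246 CPM in the LPS group, and was the red blood cell gene with the most reads. Neutrophils and CD48 thus had their lowest LPS value in the same library, LPS replicate 2, and the part of neutrophil or blood RNA in the CD48 level was not tested.

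CD48 lies in the SLAM locus, a row of related receptor genes of lymphocytes and myeloid cells, and its neighbours had unequal values. The window of 400 kb on either side was chosen after the values were seen. SLAMF7, a self-binding receptor of NK cells and plasma cells that starts 69.1 kb before CD48, was at 19.8, 14.5 and 17.5 CPM in the CON group and at 28.6, 8.34 and 182.6 CPM in the LPS group. SLAMF7 had a log2 fold change of 2.09 ± 0.89 (edgeR adjusted p = 0.385), which dropped to 0.10 with LPS replicate 3 left out. SLAMF1, which starts 41.6 kb after CD48, held 4, 2 and 12 reads in the CON group and 1, 3 and 206 reads in the LPS group and was below the filter. LPS replicate 3 was the high library for all 3 of these genes, and in LPS replicate 1 CD48 and SLAMF7 were above the CON group, CD48 by more.

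The more distant genes of the locus were not at such levels in LPS replicate 3. CD244, which encodes the NK cell receptor that binds CD48, was at 5.27, 4.37 and 8.80 CPM in the CON group and at 1.53, 8.02 and 4.85 CPM in the LPS group. LY9 had a log2 fold change of -0.40 ± 0.44, CD84 of -0.27 ± 0.41 and CD244 of -0.35 ± 0.55 (edgeR adjusted p = 0.748, 0.819 and 0.829). SLAMF6 was at 4.02, 5.16 and 6.82 CPM in the CON group and at 2.18, 3.44 and 3.96 CPM in the LPS group, with every LPS library below the CON group. Its log2 fold change was -0.71 ± 0.42 (edgeR adjusted p = 0.525).

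**Figure D4:**
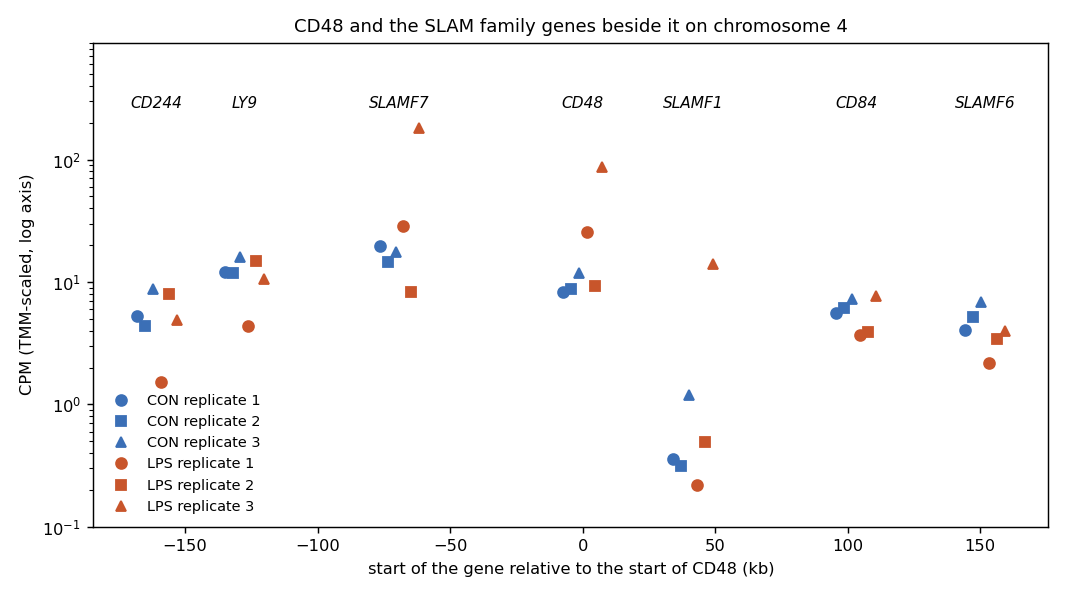
CPM (y axis, log scale) of CD48 and 6 SLAM family genes in each library, placed by the distance in kb of their start from the start of CD48 (x axis). SLAMF7, CD48 and SLAMF1 reach 182.6, 87.0 and 14.1 CPM in LPS replicate 3, whereas CD244, LY9, CD84 and SLAMF6 are within or below their CON range or, for CD84, at most 7.65 CPM against 7.22 in the highest CON library.

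Other genes of T and NK cells were examined in 5 lists. Of their 76 tested genes, 23 had a log2 fold change above 0 and 53 below. With all 6 libraries edgeR called 0 of them, and DESeq2 called SRGN, IL2RA and CCR7 higher and 0 lower, against backgrounds of 0.0548% higher and 0% lower for edgeR and of 2.02% and 1.15% for DESeq2. Of the T cell receptor complex and its proximal signaling genes, 17 were tested, of which 16 had a log2 fold change below 0 and 1 above, with a median of -0.37. At an unadjusted p below 0.05, 1 of the 17 tested genes was lower and 0 were higher, beside 6.33% and 6.18% of all tested genes, so the count is not a result about the list. That gene was CD4, the co-receptor of helper T cells, at 12.7, 13.0 and 16.7 CPM in the CON group and at 3.49, 8.34 and 5.39 CPM in the LPS group. Every LPS library was below every CON library. CD4 had a log2 fold change of -1.29 ± 0.40 (edgeR adjusted p = 0.245), and was called lower when LPS replicate 2 was left out (-1.63, adjusted p = 0.0417), where 3.45% of all tested genes were.

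Relative to CD8A, CD4 was lower in each LPS library than in any CON library. The ratio of CD4 to CD8A counts was 0.651, 0.364 and 0.698 in the CON group and 0.242, 0.285 and 0.216 in the LPS group, a mean difference of -1.16 on the log2 scale, and the groups did not overlap. The ratio does not depend on library scaling, was chosen after the values were seen and was not tested. SKAP1 at -0.67 ± 0.47 and TRAT1 at -0.52 ± 0.44, an adaptor and a transmembrane partner of the receptor, had overlapping groups (edgeR adjusted p = 0.607 and 0.667). In 14 of the 17 genes LPS replicate 1 was the lowest library, against 23.2% of all tested genes. The same held for 6 of 9 all-leukocyte genes and 10 of 14 Kupffer cell or macrophage genes.

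Of the cytotoxic granule and NK cell receptor genes, 18 were tested, of which 5 were above 0 and 13 below, with a median of -0.16. SRGN encodes serglycin, the granule proteoglycan of many blood cells, and was at 16.5, 18.4 and 20.1 CPM in the CON group and at 34.2, 30.9 and 109 CPM in the LPS group, with every LPS library above the CON group. Its log2 fold change was 1.67 ± 0.49 (edgeR adjusted p = 0.223), and DESeq2 called it higher (adjusted p = 0.0322). CTSC, the protease that activates granzymes and neutrophil proteases, was likewise above the CON group in every LPS library, with a log2 fold change of 0.84 ± 0.36 (edgeR adjusted p = 0.376). CTSW, a protease largely restricted to NK cells and cytotoxic T cells, was at 44.0, 73.7 and 70.9 CPM in the CON group and at 20.3, 44.2 and 24.0 CPM in the LPS group, with a log2 fold change of -1.09 ± 0.38 (edgeR adjusted p = 0.291). At an unadjusted p below 0.05, 2 genes of this list were higher and 1 was lower, beside 6.18% and 6.33% of all tested genes, so counts this small are not a result about the list. GNLY, which encodes granulysin, was at 17.0, 22.0 and 53.8 CPM in the CON group and at 29.7, 56.8 and 125 CPM in the LPS group, with overlapping groups (log2 fold change 1.19 ± 0.58, edgeR adjusted p = 0.446).

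Of the CD2 and SLAM family, 8 genes besides CD2 and CD48 were tested, of which 7 were below 0 and SLAMF7 alone was above, with a median of -0.40. CD58, a ligand of CD2, was at 28.8, 25.0 and 22.5 CPM in the CON group and at 10.5, 30.6 and 9.35 CPM in the LPS group. LPS replicate 2 was above the CON group and the other LPS libraries were below it. CD58 had a log2 fold change of -0.60 ± 0.46 (edgeR adjusted p = 0.63), and was called lower without LPS replicate 2 (-1.36, adjusted p = 0.045). SLAMF8, expressed by macrophages, was at 0 to 2.13 CPM in the LPS group and at 2.97 to 5.99 CPM in the CON group (log2 fold change -1.64 ± 0.75, edgeR adjusted p = 0.41).

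Of the lymphocyte transcription factors, 14 were tested, of which 5 were above 0 and 9 below, with a median of -0.34. TCF7, a factor of naive and memory T cells, was at 16.9, 30.5 and 16.8 CPM in the CON group and at 7.20, 14.2 and 7.92 CPM in the LPS group. Every LPS library was below the CON group, with a log2 fold change of -1.13 ± 0.41 (edgeR adjusted p = 0.307), and it was the only gene of the list at an unadjusted p below 0.05, where 6.33% of all tested genes were lower. EOMES, which controls the effector program of NK cells and CD8 T cells, had a log2 fold change of -0.82 ± 0.50 and IKZF1, a factor of all lymphoid lineages, of -0.74 ± 0.36 (edgeR adjusted p = 0.532 and 0.435). NFATC2, a factor activated by calcium signaling, was at -0.56 ± 0.37 (edgeR adjusted p = 0.568), and the groups overlapped for these 3 genes.

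The lymphocyte cytokine, chemokine and homing genes had a median of 0.14, with 11 of 19 tested genes above 0 and 8 below. The median was at or below 0 when libraries were scaled to total counts (-0.0012) or when CON replicate 2 (-0.11) or LPS replicate 3 (-0.17) was left out. At an unadjusted p below 0.05, 5 were higher and 1 was lower, against 6.18% and 6.33% of all tested genes. IL2RA, the high-affinity chain of the interleukin-2 receptor that activated and regulatory T cells carry, was at 0.447, 1.41 and 1.19 CPM in the CON group and at 3.49, 1.96 and 36.2 CPM in the LPS group. These levels rest on 5, 9 and 12 reads in the CON group and on 16, 12 and 530 reads in the LPS group. The log2 fold change of IL2RA was 3.84 ± 1.09 (edgeR adjusted p = 0.221, DESeq2 adjusted p = 0.00122). LPS replicate 3 was far above the other libraries, each of which held few reads. CCR7, the receptor that guides T cells and dendritic cells to lymph nodes, was at 1.61, 2.81 and 5.73 CPM in the CON group and at 11.8, 4.25 and 32.9 CPM in the LPS group, with a log2 fold change of 2.28 ± 0.73 (edgeR adjusted p = 0.263, DESeq2 adjusted p = 0.0305). Both had their lowest LPS value in LPS replicate 2, as CD48 did.

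S1PR1, the sphingosine-1-phosphate receptor that lymphocytes use to leave tissue and that endothelial cells carry too, was at 20.6, 28.6 and 22.3 CPM in the CON group and at 58.0, 29.0 and 58.2 CPM in the LPS group (log2 fold change 1.02 ± 0.35, edgeR adjusted p = 0.282). The LPS libraries were all above the CON group, LPS replicate 2 barely so. ITGAL, the alpha chain of the integrin LFA-1 by which lymphocytes hold on to endothelium, was at 123, 114 and 130 CPM in the CON group and at 38.2, 78.0 and 54.0 CPM in the LPS group. It was below the CON group in every LPS library, with a log2 fold change of -1.11 ± 0.34 (edgeR adjusted p = 0.244), and was called lower without LPS replicate 2 (-1.40, adjusted p = 0.0365).

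LPS replicate 2 decided many of these calls. With that library left out, 6 of 81 tested genes of the 5 lists were called higher by edgeR and 4 lower, where 3.76% and 3.45% of all tested genes were. The higher genes were SRGN (log2 fold change 1.98), SLAMF7 (2.62), IL2RA (4.37), CCR7 (2.74), S1PR1 (1.29) and CCL5 (2.34), and the lower genes were CD4, CTSW (-1.50), CD58 and ITGAL. CCL5, a chemokine that T cells and NK cells release, was at 102, 106 and 154 CPM in the CON group and at 179, 119 and 1032 CPM in the LPS group, and was singled out after its values were seen. For each of the 6 higher genes LPS replicate 2 was the lowest LPS library.

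**Figure D5:**
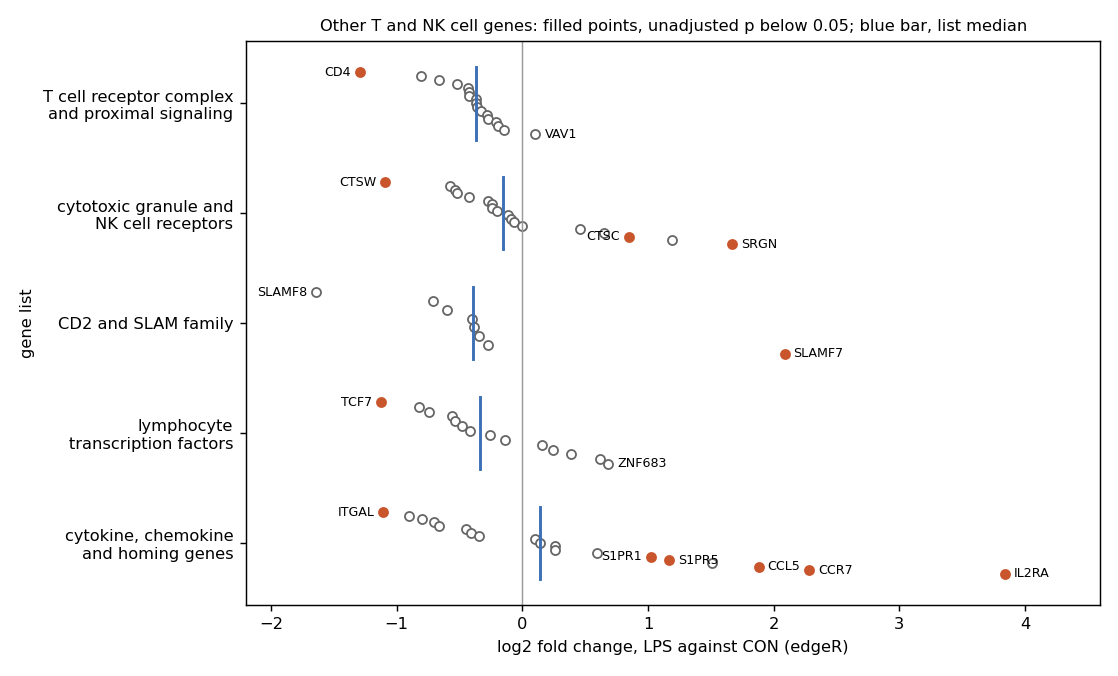
Log2 fold change of LPS against CON (x axis) of each tested gene of the 5 lists (y axis), with filled points at an unadjusted p below 0.05 and a blue bar at the median of the list. The medians are -0.37, -0.16, -0.40, -0.34 and 0.14 from top to bottom. IL2RA, with 5 to 16 reads in every library but LPS replicate 3, is the highest point at 3.84.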

How the data were processed

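The input libraries of the liver experiment were analysed, 3 per group (CON and LPS), and the m6A-IP libraries were not used here. The authors deposited raw counts of reads per gene for 31908 Ensembl pig genes, with the coordinates, strand and length of each, and without normalization. The submitters' processing notes name cutadapt 1.9.3 and HISAT2 and the builds galGal6 and hg38, neither of which is a pig genome. None of the sources used here states the counting program, its strand setting or the pig build, so coordinates are those of the deposited table. Columns were matched to libraries by group and replicate number, and 0 sample columns were left unmapped. For CON replicates 1 and 2 the labels list 2 entries each and the table has 1 column each. Symbols were found for 15029 genes, and reads without a gene are not in the table. Rows that overlap a marker were looked up: CD8A shares its span with CD8B, KLRK1 with KLRD1 and 1 gene without a symbol, and PRF1 with PALD1 and ADAMTS14, and of these only KLRK1 shares exon bases, 566 of its 4904.

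Groups were compared in edgeR 4.0.16 (R 4.3.3; filterByExpr with a minimum count of 10, TMM, glmQLFit with robust settings, glmQLFTest). A call needed an adjusted p (Benjamini-Hochberg, over the 12774 tested genes) below 0.05 together with a change of more than 1.5-fold. Standard errors were obtained from the log2 fold change and the F statistic, and 95% intervals from the t distribution with edgeR's degrees of freedom. Log2 CPM used a prior count of 2. Per-length levels are counts per kilobase of the deposited length, scaled like TPM. That length was the union of exons in all 2000 genes checked. The analysis code was tested on simulated data. The smallest p an exact permutation of 3 against 3 libraries could give is 0.1, so none was used. Alternatives were scaling by RLE or by total counts, no filter or a stricter one (10 counts or more throughout), DESeq2 1.42.0, limma-voom 3.58.1, a block for the replicate number, leaving out single libraries, and a fold threshold of none or 2. Ratios to PTPRC were added after the data were seen. Depth sets the precision: intervals of the fold changes include counting error and the spread between libraries.

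The markers and all lists were chosen with earlier results of these data known. Genes named in the text are the markers, up to 4 genes per T and NK cell list with the smallest p, up to 3 genes per other cell type list with the highest CPM, and the 5 genes most correlated with the markers. The values of some single genes of this rule are left out. The genes of the SLAM locus and the ratios to CD2, CD8A and PTPRC were chosen after their values were seen.

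Same-numbered libraries did not deviate together: the correlations of their deviations from the group means were -0.239, 0.219 and 0.0289 for numbers 1, 2 and 3. No pair of libraries agreed within sampling noise, the lowest chi-square per gene being 32.7, so each library was counted once.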

Additional observations from a re-analysis of the deposited data

How the results depend on the processing

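Over the 9 tested markers, 135 alternative fits gave 116 values with the same direction and side of the threshold, 3 in which CD48 passed it, and 16 with the sign turned, none of them called. Over 25 other named genes, 371 alternatives gave 351, 18 and 2. Markers called higher numbered 0 as reported, 1 with no filter and with DESeq2, and 0 to 1 with 1 library left out, and CD48 was the marker called. NKG7 turned to -0.17 with total counts, -0.0072 with no filter, -0.0111 with at least 10 counts in every library, -0.0213 with limma-voom and -0.0662 with the replicate block. With 1 library left out the log2 fold change ran from -0.32 to 0.29 for NKG7, from -0.29 to 0.16 for CD3E, from -0.40 to 0.0798 for CD8A, from -1.12 to 0.35 for GZMA, from -0.14 to 0.47 for PRF1 and from -0.86 to 0.0528 for CD244, and CD2 was below 0 throughout (-1.07 to -0.42). Total counts moved the median of all tested genes from 0.0057 to -0.12. Relative to PTPRC within a library the log2 difference of CD48 was 1.99, of CD2 -0.42, of CD3D 0.02 and of CD3E 0.31. The groups overlapped for each of these ratios.

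Over all tested genes, 7 were called higher and 0 lower, where 790 and 809 were at an unadjusted p below 0.05. Higher calls numbered 11 with total counts, 536 with no filter, 0 with at least 10 counts in every library, 258 with DESeq2, 2 with limma-voom and 0 to 512 with 1 library left out. Lower calls numbered 1 with RLE factors and with total counts, 349 with no filter, 146 with DESeq2 and 0 to 470 with 1 library left out, and both highest values came without LPS replicate 2. The causes of these differences were not tested. The replicate block gave 42 higher and 9 lower calls and called no marker; the labels give no shared animal for same-numbered libraries, which did not deviate together.

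In the lists, edgeR without the filter called 1 cytotoxic, 2 CD2 and SLAM family and 3 cytokine, chemokine and homing genes higher. DESeq2 called 1 of 18, 0 of 8 and 2 of 19 tested genes of these lists. Over all tested genes 2.28% were called higher without the filter and 2.02% by DESeq2. With 1 library left out, higher calls ran from 0 to 1, 0 to 1 and 0 to 4 in these lists. Lower calls ran from 0 to 1 in each of them and in the T cell receptor list. The highest counts came without LPS replicate 2, where 3.76% of all tested genes were called higher and 3.45% lower. The median of the transcription factors ran from -0.52 to -0.13. By CPM instead of per-length level, 1 of 10 marker rows kept its place in the order of levels. Shallow depth limits the rarest rows: the untested GZMA row had 0 to 28 reads.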

Other observations

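The lists of other cell types gave a background for the T and NK cell markers, and they are given as values without a test. B or plasma cell genes had a median log2 fold change of -0.73 over 9 tested genes, of which 8 were below 0, with a summed level of 59.5 to 140 CPM in the CON group and 27.5 to 66.3 CPM in the LPS group. BANK1, an adaptor of B cell receptor signaling, was at 26.7, 13.0 and 15.4 CPM in the CON group and at 3.05, 11.5 and 7.44 CPM in the LPS group, with every LPS library below the CON group. JCHAIN, which joins IgA and IgM units in plasma cells, was at 53.7 CPM in CON replicate 3 and at 5.01 to 15.1 CPM in the other libraries.

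Kupffer cell or macrophage genes had a median of -0.51 over 14 tested genes, of which 13 were below 0, and CD14, the co-receptor for LPS, was the one above, at 518, 818 and 821 CPM in the CON group and at 1354, 805 and 2328 CPM in the LPS group. Dendritic cell genes had a median of -0.36 over 6 tested genes, and BATF3, a transcription factor of dendritic cells and activated T cells, was at 19.3, 28.9 and 25.9 CPM in the CON group and at 312, 56.8 and 523 CPM in the LPS group. As with CD48, LPS replicate 2 was the lowest of the LPS libraries for BATF3.

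Endothelial genes had a median of -0.42 over 10 tested genes, hepatocyte genes of -0.31 over 12, and cholangiocyte or stellate cell genes of -0.11 over 11. Neutrophil genes had a median of 2.40 over 8 tested genes and the 2 tested red blood cell or platelet genes of 1.19. Across the 6 libraries the log2 CPM of CD48 had a correlation of -0.93 with the mean of the endothelial genes and of -0.49 with that of the Kupffer cell or macrophage genes, as a description.

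IFNG and CD69 had few reads in most libraries. IFNG, which encodes interferon gamma, held 10, 6 and 8 reads in the CON group and 0, 6 and 4 reads in the LPS group. CD69, an early activation marker, held 11, 3 and 7 reads in the CON group and 3, 3 and 42 reads in the LPS group. Neither passed the filter on low counts, and both were singled out after their values were seen.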
